A study of Mus musculus with 2 samples.

Results

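The genes described here are 7 transcription factors that pattern the cortex into areas: Pax6, Emx1, Emx2, Lhx2, Nr2f1, Nr2f2 and Zbtb20. They were chosen by name, with earlier results of these data known, and are 7 of 32285 genes counted. Single-cell libraries (10x Genomics 3′ v3.1) were made from papain-dissociated cortex of 2 WT mouse embryos at E16.5, the control animals of an Eomes-Cre line, labelled 4 and 5. The labels call the tissue brain hemispheres, and the sample titles carry the name EoMltt3. There was 1 library per embryo, and the series holds no treated or mutant group, so each comparison below is between kinds of cell within these embryos. Whether the WT embryos carried the Cre allele is not given in the sources used here, and the embryo is the replicate throughout (n = 2).

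The cortex acquires areas because progenitors in the ventricular zone carry different amounts of a few transcription factors along the rostrocaudal and mediolateral axes. Pax6, a paired-box homeodomain factor of radial glia, is high rostrally and laterally. Emx1 and Emx2 are homeodomain factors, and Emx2 is high caudally and medially, as is Lhx2, a LIM-homeodomain factor that gives the early telencephalon its cortical identity. Nr2f1 (COUP-TFI) and Nr2f2 (COUP-TFII) are orphan nuclear receptors that are high caudally, and both are also known from interneurons of the caudal ganglionic eminence. Zbtb20 is a zinc-finger repressor known for its part in the hippocampus and in late-born cortical neurons.

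On the mm10 reference (RefSeq annotation of GRCm38.p6), Pax6 (ENSMUSG00000027168) lies at chr2:105668896-105698410 on the plus strand and Lhx2 (ENSMUSG00000000247) at chr2:38339271-38369737 on the plus strand. Emx1 (ENSMUSG00000033726) lies at chr6:85187931-85204463 and Emx2 (ENSMUSG00000043969) at chr19:59458690-59465357, both on the plus strand. Nr2f1 (ENSMUSG00000069171) lies at chr13:78188971-78198873 and Nr2f2 (ENSMUSG00000030551) at chr7:70351946-70366746, both on the minus strand. Zbtb20 (ENSMUSG00000022708) spans chr16:42875689-43634392 on the plus strand.

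The files held 12825 barcodes in embryo 4 and 12289 in embryo 5, with 124318613 and 117679925 unique molecular identifiers (UMIs, each standing for 1 captured RNA molecule). After filters on gene number, mitochondrial share and predicted doublets, 9932 and 10416 cells were kept, with medians of 10035 and 8826 UMIs. The embryos shared 46 barcodes. Of 28 clusters, 23 fell into 15 classes named from markers that included none of the 7 genes, and 5 clusters (1437 and 1545 cells) stayed unnamed. Of these classes 10 had at least 50 cells in each embryo and entered the tests. By these markers the labelled tissue held an excitatory lineage beside GABAergic, Cajal-Retzius-like and vascular classes, and the fibroblast-like class came from embryo 5 alone (53 cells). Levels are UMIs of a gene per 1000000 UMIs (CPM), summed over the cells of a class in an embryo. A lower sum can mean fewer expressing cells or fewer molecules per cell, and free RNA adds a little of every gene to every class.

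**Figure D1:**
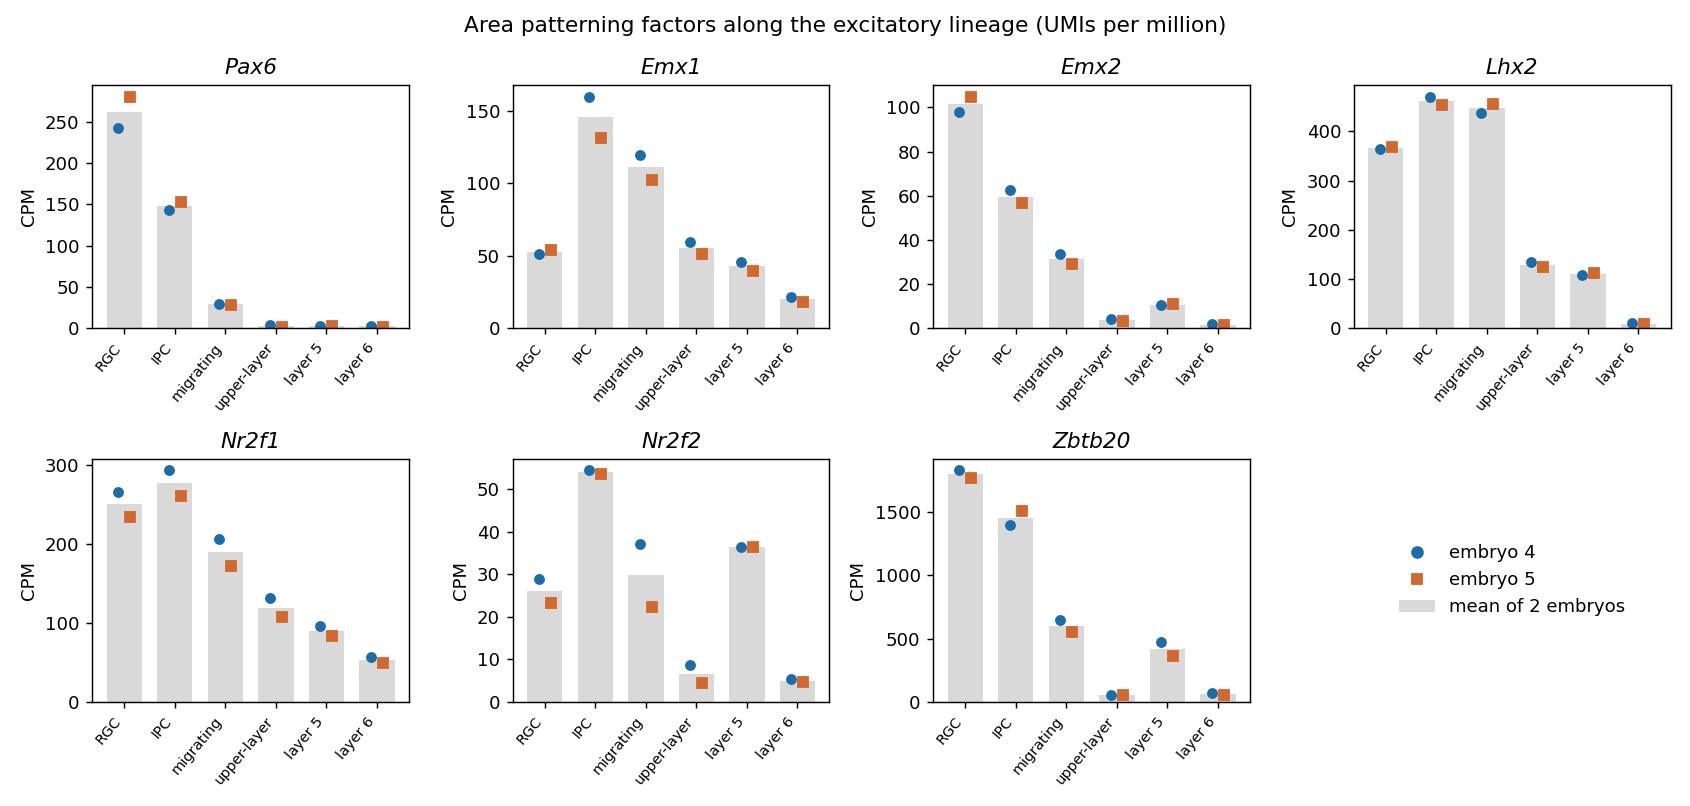
Level of each gene in 6 classes of the excitatory lineage, in CPM on linear axes that start at 0. Grey bars are the mean of 2 embryos, circles are embryo 4 and squares embryo 5. Pax6 was 242 and 281 CPM in radial glia and under 5 CPM in the 3 layer classes, while Lhx2 held 437 and 456 CPM in migrating neurons.

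The genes left the lineage at different points. Pax6, Emx2 and Zbtb20 were highest in radial glia (RGC-like cells) among the 6 excitatory-lineage classes, Emx1 was highest in intermediate progenitors (IPC-like cells), and Lhx2 stayed high as far as migrating neurons. RGC-like cells (1352 and 1481 cells) carried summed CPM of 7473 and 7254 for 10 radial glia markers, and IPC-like cells (1121 and 1164) carried 2454 and 2418 for 8 intermediate progenitor markers such as Eomes. Summed levels of 8 subpallial markers were 22.7 and 24.6 CPM in RGC-like cells against 1687 and 1565 in MGE interneuron-like cells.

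Pax6 was at 242 CPM in RGC-like cells of embryo 4 and 281 CPM in embryo 5. In IPC-like cells it was at 143 and 153 CPM. Emx2 went from 98.2 and 105 CPM in RGC-like cells to 62.4 and 56.7 CPM in IPC-like cells. Both genes were lower in IPC-like cells in each embryo. Emx1 went the other way, from 51.3 and 53.7 CPM in RGC-like cells to 160 and 131 CPM in IPC-like cells. Nr2f2 rose as well, from 28.8 and 23.1 CPM to 54.4 and 53.5 CPM. Of the 7 genes, 2 were higher and 2 lower in IPC-like than in RGC-like cells by the edgeR quasi-likelihood test, adjusted by Benjamini-Hochberg over 16993 genes, where 48.6% of all genes passed. Emx1 was 2.83-fold higher (SE 0.12 on the log2 scale, edgeR adjusted p = 2.73e-09), and the log2 fold change of Nr2f2 was 1.09 ± 0.26 (SE, edgeR adjusted p = 0.00161). It was -0.79 ± 0.16 for Pax6 (edgeR adjusted p = 0.000331) and -0.74 ± 0.13 for Emx2 (edgeR adjusted p = 0.000102).

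The Nr2f2 call at this step depended on how cells were filtered and clustered. With doublets kept the edgeR log2 fold change was 0.61 (adjusted p = 0.0613), with cells of at least 500 genes 0.33 (adjusted p = 0.467), with at most 5% mitochondrial counts 0.29 (adjusted p = 0.437), and with the 7 genes left in the clustering 0.43 (adjusted p = 0.298). Lhx2 (364 and 368 CPM in RGC-like, 471 and 453 CPM in IPC-like cells) was higher in IPC-like cells in each embryo. Zbtb20 (1828 and 1764 against 1393 and 1508 CPM) was lower in each embryo, but both genes missed the threshold. Their edgeR adjusted p were 0.0541 and 0.0543, and with the embryo as a block 0.000632 and 0.029. Nr2f1, at 266 and 234 CPM in RGC-like cells and 293 and 260.5 CPM in IPC-like cells, was higher in IPC-like cells within each embryo, with overlap between embryos (log2 fold change 0.18 ± 0.17, edgeR adjusted p = 0.417). It passed in a fit on these 2 classes alone (0.24, edgeR adjusted p = 0.046).

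From IPC-like cells to migrating neurons (1926 and 1940 cells), 4 of the 7 genes were lower and none was higher, where 41.4% of all genes passed. Pax6 fell to 29.2 and 28.3 CPM, a log2 change of -2.24 ± 0.17 (edgeR adjusted p = 1.89e-09). Zbtb20 fell to 650.2 and 552 CPM (-1.14 ± 0.12, edgeR adjusted p = 1.05e-07) and Emx2 to 33.6 and 29.1 CPM (-0.80 ± 0.14, edgeR adjusted p = 8.5e-05). With a stricter naming of clusters the Emx2 change was -0.11 (edgeR adjusted p = 0.603). Lhx2 was kept: 437 and 456 CPM in migrating neurons overlapped the IPC-like values (0.08 ± 0.15, edgeR adjusted p = 0.722). Emx1 was at 119 and 102 CPM (-0.27 ± 0.11, edgeR adjusted p = 0.0701) and Nr2f1 at 207 and 173 CPM (-0.42 ± 0.17, edgeR adjusted p = 0.0568), and with the embryo as a block their adjusted p were 0.00136 and 6.67e-05.

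Nr2f2 was the fourth gene called lower in migrating neurons (37.0 and 22.4 CPM, log2 change -0.73 ± 0.25, edgeR adjusted p = 0.0255), but this direction did not hold. It turned to a higher level in migrating neurons, between 0.88 and 2.51 on the log2 scale, under 6 of the other filters and clusterings, listed in the section on processing. Nr2f1 turned at the 5% mitochondrial limit (0.55, edgeR adjusted p = 0.0381). Cluster 9, unnamed here and with migrating neuron markers as its best score, carried 258 and 214 CPM of Nr2f2. Its part in the reversal was not tested. The 3 migrating clusters also differed in Zbtb20, which was at 239 and 207 CPM in cluster 0 (led by Nrp1), 611 and 653 CPM in cluster 6 (led by Unc5d) and 1809 and 1404 CPM in cluster 14 (led by Rmst, Neurod1 and Lhx9).

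**Figure D2:**
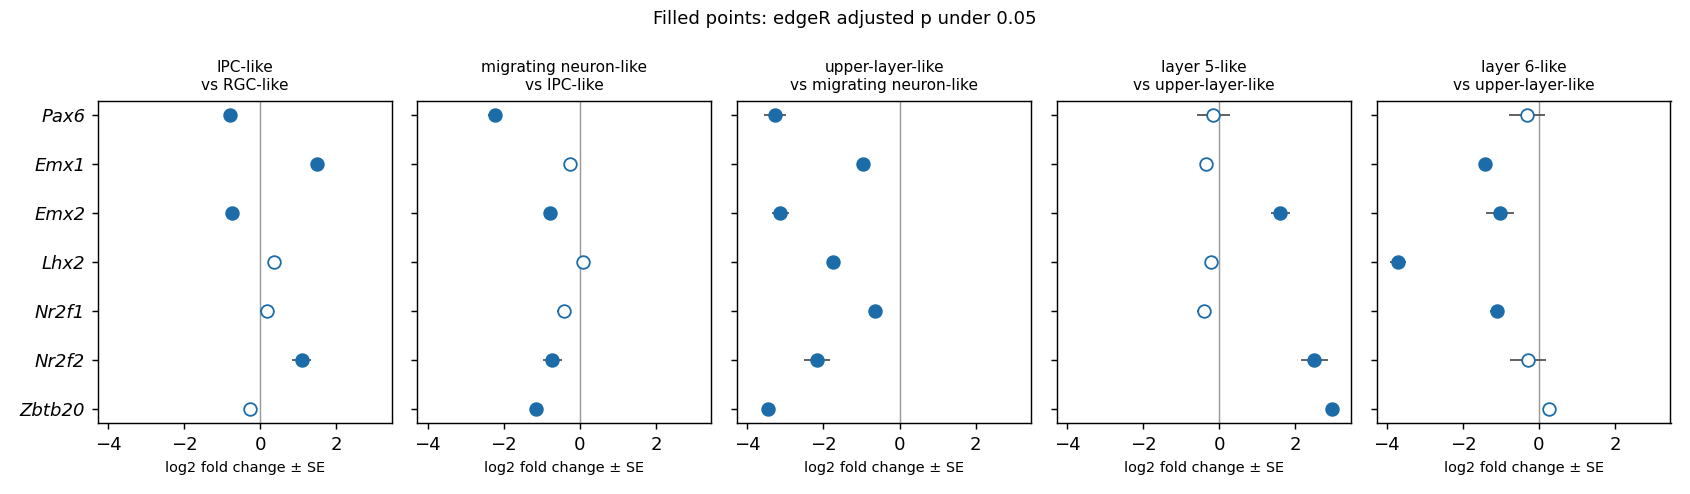
Log2 fold change of each gene at 5 steps between classes, with bars of 1 standard error from edgeR. Filled points passed an adjusted p of 0.05. At the step from migrating to upper-layer neurons all 7 points lie below 0, from -0.64 for Nr2f1 to -3.45 for Zbtb20.

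All 7 genes fell between migrating and upper-layer-like neurons (736 and 883 cells), where 27.2% of all genes passed. Zbtb20 was at 56.4 and 50.8 CPM in upper-layer-like neurons, 11.0-fold lower than in migrating neurons (edgeR adjusted p = 3.04e-13). Pax6 was at 4.05 and 1.86 CPM, 9.61-fold lower (edgeR adjusted p = 2.95e-08), and Emx2 at 3.93 and 3.06 CPM, 8.77-fold lower (edgeR adjusted p = 8.03e-10). In each embryo all 3 levels lay well below those of migrating neurons. For Zbtb20 the migrating level pools the unlike clusters given above. Cluster 0, the largest of them (1001 and 1006 cells), had the lowest Zbtb20 level, still above upper-layer-like neurons in each embryo. Against cluster 0 alone the fold would be smaller. Lhx2 (135 and 123 CPM) and Emx1 (59.4 and 51.4 CPM) were reduced and still present, with log2 changes of -1.75 ± 0.16 and -0.97 ± 0.12. Nr2f1, at 132 and 107 CPM, had the smallest change of the 7 (-0.64 ± 0.18, edgeR adjusted p = 0.0101), and Nr2f2, at 8.69 and 4.38 CPM, fell by 2.17 ± 0.35 on the log2 scale. The Emx1 call was lost at the 5% mitochondrial limit (-0.37, edgeR adjusted p = 0.108).

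After thinning every cell to 5000 UMIs, a Pax6 UMI was found in 64.2% and 71.6% of RGC-like cells, in 46.7% and 48.7% of IPC-like cells and in 11.5% and 11.7% of migrating neurons. Only 1.92% and 0.95% of upper-layer-like neurons had a Pax6 UMI, beside 2.52% and 0.62% of MGE interneuron-like cells. The MGE cells stand here for a class without cortical Pax6, and the shares of both classes overlapped between embryos. Whether free RNA accounts for the upper-layer share was not tested. Emx2 behaved alike, from 35.9% and 38.3% of RGC-like cells to 2.06% and 1.07% of upper-layer-like neurons. Without thinning, the Pax6 shares were 80.3% and 86.2% of RGC-like cells and 4.48% and 1.93% of upper-layer-like neurons, at class medians of 10966 and 9805 UMIs against 11377 and 10033. In MGE interneuron-like cells, with medians of 6368 and 6343 UMIs, the unthinned share was 2.96% and 0.78%, below the upper-layer share in each embryo.

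Of the 7 genes, Lhx2 differed most between upper-layer-like and layer 6-like neurons, and Zbtb20 between upper-layer-like and layer 5-like neurons. Lhx2 was at 135 and 123 CPM in upper-layer-like and at 10.3 and 8.54 CPM in layer 6-like neurons (902 and 951 cells), 13.1-fold lower in the deep layer (edgeR adjusted p = 3.13e-11). Emx1 (21.5 and 18.1 CPM) and Nr2f1 (56.7 and 49.6 CPM) were lower in layer 6-like neurons as well, by log2 changes of -1.42 ± 0.14 and -1.10 ± 0.19. Emx2 was at 1.68 and 1.57 CPM, and its call (-1.02 ± 0.37, edgeR adjusted p = 0.0415) was lost with the embryo as a block (adjusted p = 0.0518). Thus 4 of the 7 genes were lower in layer 6-like neurons and none higher, where 31.2% of all genes passed. Zbtb20 was at 67.6 and 55.0 CPM, close to its upper-layer level (0.26 ± 0.13, edgeR adjusted p = 0.15), but it was lower in layer 6-like neurons at the 5% mitochondrial limit (-0.72, edgeR adjusted p = 0.000679) and with coarser (-0.91, edgeR adjusted p = 6.05e-05) and finer clustering (-0.67, edgeR adjusted p = 0.000642), and higher with no filter on low counts (0.27, edgeR adjusted p = 0.0471). Pax6 was also lower with coarser (-1.45) and finer clustering (-1.11), and Nr2f2 with coarser clustering (-1.66).

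In layer 5-like neurons (873 and 942 cells) 3 of the 7 genes were higher than in upper-layer-like neurons and none was lower, where 17.1% of all genes passed. Zbtb20 reached 473 and 362 CPM, 7.86-fold the upper-layer level (edgeR adjusted p = 3.2e-12). Nr2f2 was at 36.3 CPM in both embryos (5.66-fold, edgeR adjusted p = 2.74e-05) and Emx2 at 10.3 and 10.8 CPM (3.04-fold, edgeR adjusted p = 0.000116). The class is less sure than the others: 6 layer 5 markers summed to 1904 and 1968 CPM in it against 2080 and 2182 CPM in layer 6-like neurons, and 7 layer 6 markers to 5027 and 5154 CPM against 11472 and 11289 CPM. It held 2 unlike clusters. Cluster 13, with Slit3 and Crym among its leading genes, carried 1209 and 842 CPM of Zbtb20, 88.2 and 85.4 CPM of Nr2f2 and 21.9 and 23.3 CPM of Emx2. Cluster 7, led by Rspo3 and Ntm, carried 48.2 and 36.0 CPM of Zbtb20, 6.39 and 2.93 CPM of Nr2f2 and 3.52 and 2.34 CPM of Emx2, close to upper-layer-like neurons. For all 3 genes cluster 13 was above cluster 7 in each embryo. With coarser clustering the Nr2f2 difference was 0.11 on the log2 scale (edgeR adjusted p = 0.755), and with finer clustering that of Emx2 was 0.21 (edgeR adjusted p = 0.347). Emx1 (45.8 and 39.7 CPM) and Nr2f1 (96.3 and 84.0 CPM) missed the threshold in the unpaired fit (edgeR adjusted p = 0.0603 and 0.16) and were lower with the embryo as a block (0.00359 and 0.00274). Lhx2 was at 109 and 112 CPM and missed the threshold (-0.21 ± 0.16, edgeR adjusted p = 0.428), but was lower in layer 5-like neurons under 5 other settings, from -0.22 in a fit on both classes alone (edgeR adjusted p = 0.0437) to -1.40 with coarser clustering (edgeR adjusted p = 2.7e-05).

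Against the mean of the 4 excitatory neuron classes, RGC-like cells were higher in 6 of the 7 genes, where 71.8% of all genes passed. The log2 difference ran from 5.59 ± 0.14 for Pax6 through 3.74 ± 0.11 for Emx2, 3.20 ± 0.08 for Zbtb20, 1.85 ± 0.12 for Lhx2 and 1.09 ± 0.13 for Nr2f1 to 0.72 ± 0.23 for Nr2f2. For Emx1 it was -0.07 ± 0.10 (edgeR adjusted p = 0.564). The Nr2f2 difference was lost with doublets kept (0.37, edgeR adjusted p = 0.129), at the 5% mitochondrial limit (0.10, edgeR adjusted p = 0.735) and with finer clustering (0.32, edgeR adjusted p = 0.179), and its sign turned, at a value near 0, with coarser clustering. These comparisons share their samples, so the 6 calls are not independent of the steps above. The neuron mean leaves out unnamed clusters 8 and 9, the latter with migrating neuron markers as its best score. Nr2f1 was at 456 and 438 CPM in them (means of both embryos), and both Nr2f1 and Nr2f2 were above their RGC-like levels in each embryo. How these clusters would change the Nr2f1 and Nr2f2 calls was not tested.

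Of 29 other genes of cortical patterning, among them the FGF pathway genes Etv5, Spry2 and Fgfr3 and area-marked guidance and adhesion genes, 28 could be tested between classes. Against the mean of the neuron classes, 16 were higher in RGC-like cells and 11 lower, where 71.8% of all genes passed. The median log2 difference was 1.44 beside 1.85 for the 7 genes and 0.04 for all genes tested. The nuclear receptor gene Nr2e1 (156 and 167 CPM in RGC-like cells) was 109-fold higher, Gli3, a transcription factor of the hedgehog pathway, 77.4-fold and Tfap2c, a factor of basal progenitor production, 70.4-fold higher. Bhlhe22, a factor of postmitotic area identity, was 44.3-fold lower. From RGC-like to IPC-like cells 8 were higher and 15 lower, where 48.6% of all genes passed. They were led by the adhesion gene Cdh8 (4.17 higher on the log2 scale) and by Spry2, an FGF feedback inhibitor (5.33-fold lower). At the next step 11 were higher and 14 lower (41.4% of all genes passed). Between migrating and upper-layer-like neurons 6 were higher and 13 lower (27.2% of all genes passed), with Rorb, a layer 4 and sensory area factor, 4.92-fold higher. Layer 6-like neurons had 9 of these genes higher and 7 lower than upper-layer-like neurons (31.2% of all genes passed). The higher ones were led by Lmo3 (310.4 and 364 CPM in layer 6-like neurons, 19.7-fold higher). Layer 5-like neurons had 5 higher and 6 lower (17.1% of all genes passed).

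Within the RGC-like class, 618 and 753 cells in clusters with high cell cycle genes were compared with 734 and 728 others. None of the 7 genes passed in either direction by edgeR in the unpaired fit, where 16.3% of all genes passed, and 1 of the 7, Emx2, had an unadjusted p under 0.05. Zbtb20 was at 1648 and 1639 CPM in cycling cells and 2066 and 1963 CPM in the others. It was lower in cycling cells in each embryo but missed the threshold (-0.22 ± 0.11, edgeR adjusted p = 0.203). With the embryo as a block, Pax6 (0.28, adjusted p = 0.0355), Emx2 (0.34, adjusted p = 0.0116) and Nr2f1 (0.25, adjusted p = 0.0312) passed as higher in cycling cells. The DESeq2 Wald test, without the block, also called none of the 7. Emx2 further passed with doublets kept and with finer clustering.

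Outside the series from RGC-like cells to layer neurons compared above, Nr2f2 and Emx2 were highest in Cajal-Retzius-like cells (65 and 66 cells), the Reln-expressing neurons of the marginal zone. Nr2f2 was at 744 and 631 CPM there, and Emx2 at 406 and 448 CPM, above the RGC-like level in each embryo. Zbtb20 was at 1013 and 1039 CPM and Lhx2 at 203 and 229 CPM in the same cells, while Nr2f1, at 72.0 and 31.3 CPM, was below its RGC-like level. Mural-like cells (51 and 44), the contractile cells of vessels, carried 329 and 283 CPM of Nr2f2 and 131 and 168 CPM of Nr2f1, with Pax6 at 1.71 and 2.26 CPM. Cajal-Retzius-like cells had summed subpallial markers of 4.06 and 0 CPM.

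Among GABAergic neurons, the CGE interneuron-like class (333 and 395 cells) is less sure than the MGE class. Its 5 CGE markers summed to 6389 and 6198 CPM, but 8 LGE-type markers summed to 4230 and 5579 CPM in it against 3552 and 5442 CPM in the LGE-type class, and its 10 leading genes held 1 marker of its own and 1 of another class. It carried 111 and 116 CPM of Pax6 against 4.57 and 1.41 CPM in MGE interneuron-like cells (676 and 642 cells). Nr2f2 was at 342 and 193 CPM against 62.4 and 47.4 CPM, and Zbtb20 at 669.6 and 683 against 372 and 332 CPM. Each of these 3 genes was higher in the CGE class in both embryos, and 3 of 7 were called higher and none lower, where 13.2% of all genes passed. The folds were 35.1 for Pax6 (edgeR adjusted p = 7.07e-10; 4.48 on the log2 scale without embryo 5 and 6.24 without embryo 4), 4.53 for Nr2f2 (edgeR adjusted p = 8.17e-06) and 1.81 for Zbtb20 (edgeR adjusted p = 3.95e-05). No test of the class was possible where a tie of leading markers left its cluster unnamed or with coarser clustering. Zbtb20 lost its call at the 5% mitochondrial limit (0.40 on the log2 scale, edgeR adjusted p = 0.138). Nr2f1 was at 318 and 198 CPM in CGE and 216 and 199 CPM in MGE interneuron-like cells and overlapped (0.21 ± 0.19, edgeR adjusted p = 0.577), whereas it passed as higher in CGE cells at the 5% mitochondrial limit (0.99, edgeR adjusted p = 0.00991) and with finer clustering (1.22, edgeR adjusted p = 0.000175). Emx1, Emx2 and Lhx2 were low in both classes, at 0.70 to 17.4 CPM. Sp8, a zinc-finger factor of CGE and dorsal LGE interneurons, was at 111 and 118 CPM in the CGE class against 2.0 CPM or less in the MGE class.

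Over the 10 classes, the order of levels differed from gene to gene. For Pax6 it was RGC-like, IPC-like and CGE interneuron-like, then LGE-type (53.8 and 96.0 CPM) and Cajal-Retzius-like cells (70.0 and 51.1 CPM), whose embryos overlapped, then migrating neurons. MGE, upper-layer, layer 5 and layer 6 classes, all under 5 CPM, overlapped at the bottom. For Emx1 the order was IPC-like, migrating, then upper-layer-like and RGC-like cells, which overlapped, then layer 5 and layer 6, with Cajal-Retzius-like and GABAergic classes below 13 CPM. For Lhx2, IPC-like and migrating cells overlapped at the top and layer 6, MGE and CGE classes at the bottom. For Zbtb20, RGC-like, IPC-like and Cajal-Retzius-like cells came first without overlap. For Nr2f1 the CGE class overlapped the IPC, RGC, MGE and migrating classes, so no class stood out as highest.

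**Figure D3:**
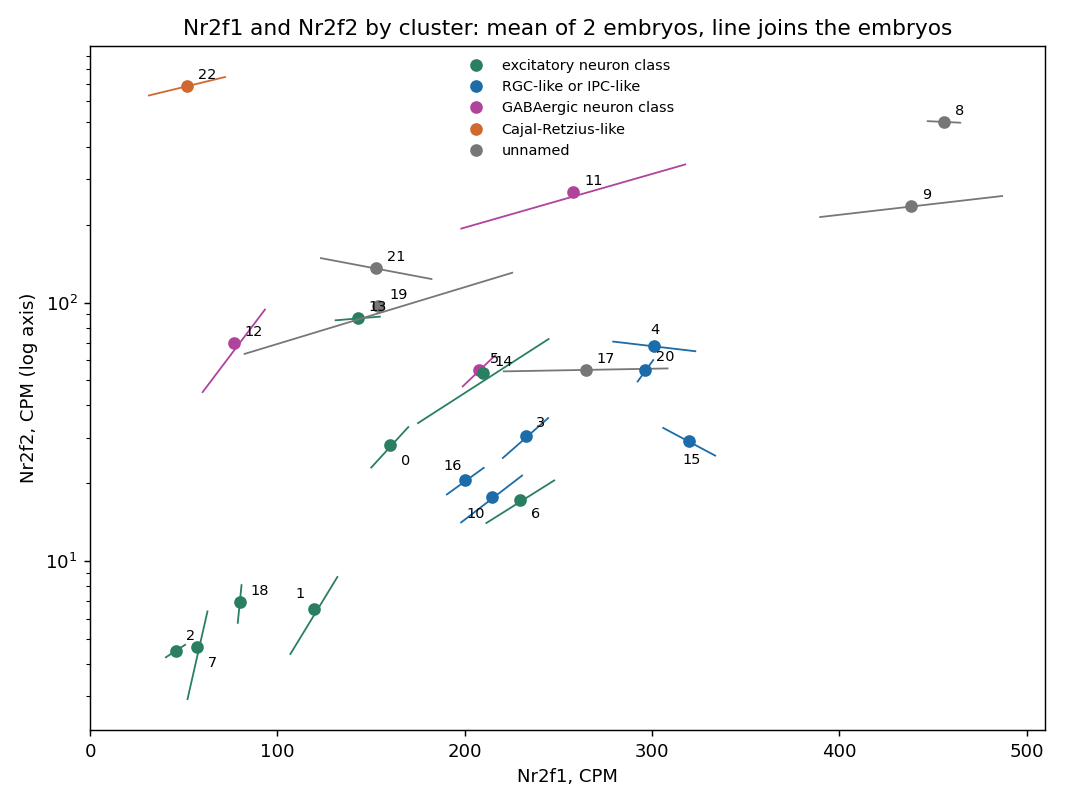
Nr2f1 level (x axis, CPM) against Nr2f2 level (y axis, CPM, log axis) in the numbered clusters with at least 50 cells in each embryo. Points are means of 2 embryos and lines join the embryos. Unnamed clusters 8 and 9 hold the highest Nr2f1 levels, Cajal-Retzius-like cells (22) the highest Nr2f2.

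Nr2f1 and Nr2f2 were high together in some clusters and not in others. Cajal-Retzius-like cells had high Nr2f2 with low Nr2f1. Upper-layer-like neurons had 132 and 107 CPM of Nr2f1 with Nr2f2 under 9 CPM. The 2 clusters with the highest Nr2f1 levels were both unnamed. Cluster 8 (477 and 490 cells), led by Tafa1, Tafa2 and Thsd7a, carried 464 and 447 CPM of Nr2f1 and 496 and 503 CPM of Nr2f2. Cluster 9 (427 and 487 cells), led by Tfap2d and Nts, carried 487 and 390 CPM of Nr2f1 and 258 and 214 CPM of Nr2f2. Their levels are described without a test, and Nr2f2 was itself the tenth leading gene of cluster 8, although it had been kept out of the clustering.

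RGC-like cells were next compared among themselves, since area patterning rests on different levels among radial glia. Cells were thinned to 5000 UMIs, 1127 and 1290 cells remained, and cells with at least 2 Nr2f1 UMIs (370 and 388) were set against cells with none (506 and 644). Nr2f2 was at 64.9 and 55.7 CPM in Nr2f1-high cells and 7.11 and 4.04 CPM in Nr2f1-low cells. Efna5, which encodes the guidance ligand ephrin-A5, was at 22.7 and 28.9 CPM against 184 and 219 CPM. Fgfr3, an FGF receptor gene, was at 110.3 and 99.5 CPM against 27.7 and 26.7 CPM. In each embryo Nr2f2 and Fgfr3 were higher and Efna5 was lower in Nr2f1-high cells. With the embryo as a block, Nr2f2 was 10.8-fold higher (edgeR adjusted p = 6.7e-11), Fgfr3 higher by 1.93 on the log2 scale (edgeR adjusted p = 2.19e-10) and Efna5 7.88-fold lower (edgeR adjusted p = 5.21e-14) in Nr2f1-high cells. All 3 calls held without the block, with DESeq2 and at 3000 UMIs, where the log2 differences were 2.17, 1.29 and -2.55.

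The other members differed less along Nr2f1. Of the 6 genes other than Nr2f1 itself, 1 was higher and 3 were lower in Nr2f1-high cells, where 5.87% of 11235 genes passed. Zbtb20 was at 1675 and 1523 against 1980 and 1920 CPM (-0.30 ± 0.05, edgeR adjusted p = 0.000109). Emx1 was at 41.6 and 43.8 against 54.2 and 61.5 CPM (-0.45 ± 0.14, edgeR adjusted p = 0.0479) and Emx2 at 71.4 and 89.7 against 107 and 102 CPM (-0.38 ± 0.11, edgeR adjusted p = 0.045). The Zbtb20, Emx1 and Emx2 calls were lost without the block (adjusted p = 0.0688, 0.17 and 0.225), and those of Emx1 and Emx2 also with DESeq2 and at 3000 UMIs. Pax6 and Lhx2 did not pass (0.16 ± 0.07 and 0.10 ± 0.06, edgeR adjusted p = 0.225 and 0.492). Of the other patterning genes 25 were tested, 4 were higher and 3 lower. Lmo3 (1.81-fold) and Cdh8 (1.72-fold) were higher, Sp8 (5.41-fold) and Lix1 (1.27-fold) lower. Of these, Lmo3 held under all 3 other settings, Lix1 under none, Cdh8 only without the block, and Sp8, at 2.16 to 13.8 CPM, was lost with DESeq2 and at 3000 UMIs. Summed subpallial markers were 22.2 and 11.3 CPM in Nr2f1-high against 29.2 and 39.1 CPM in Nr2f1-low cells, and 54.3% and 55.4% against 47.8% and 52.0% of cells were in cycling clusters. Their part in these differences was not tested.

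**Figure D4:**
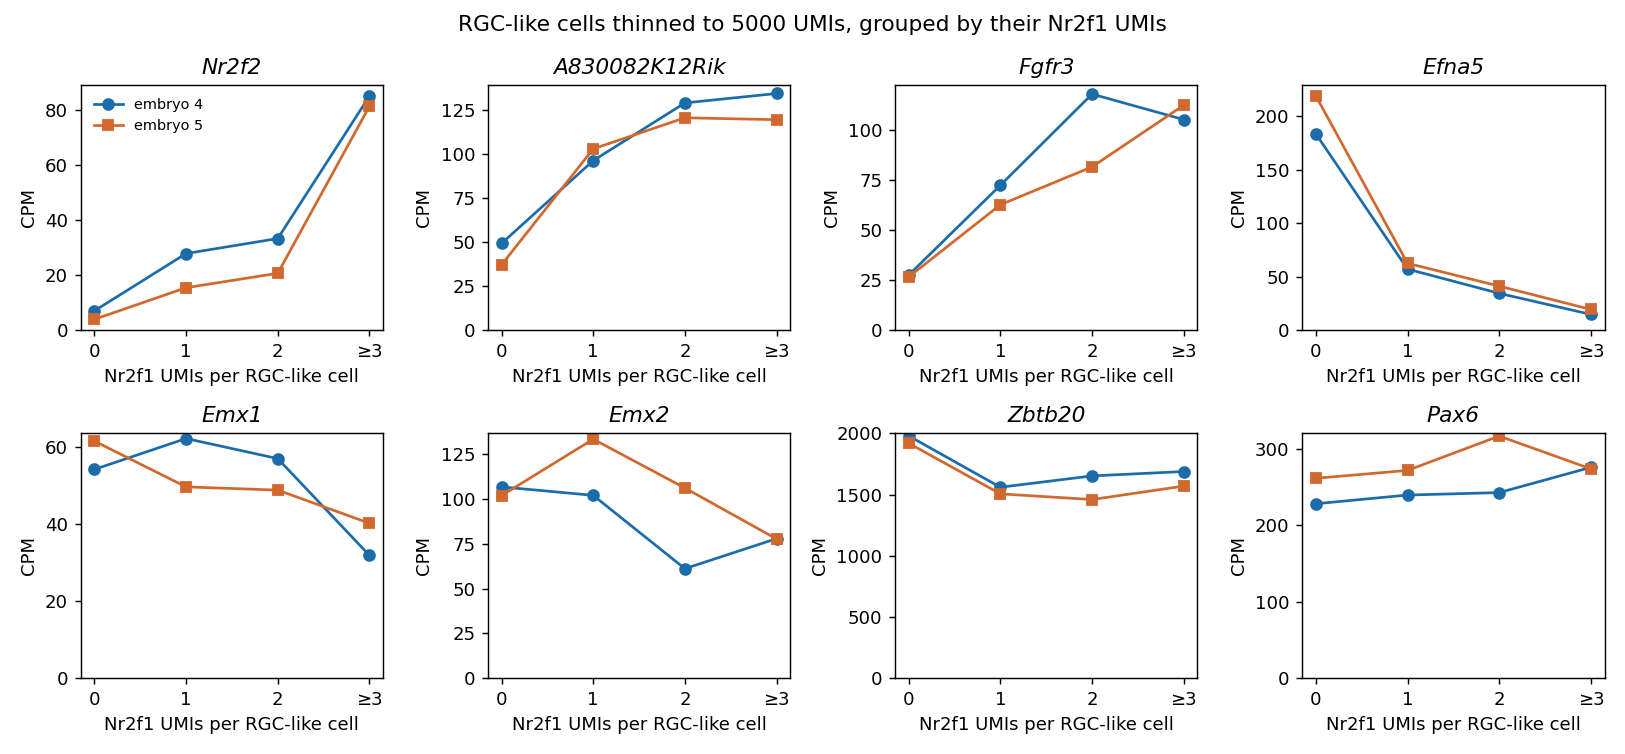
RGC-like cells thinned to 5000 UMIs and grouped by their number of Nr2f1 UMIs (x axis), with the level of 8 genes in each embryo (y axes, CPM from 0, circles embryo 4, squares embryo 5). Efna5 goes from 184 and 219 CPM at 0 UMIs to under 20 CPM in both at 3 or more, and Nr2f2 from 7.11 and 4.04 to 85.0 and 81.3 CPM.

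Over bins of Nr2f1 UMIs, chosen after these results were seen and not tested, the levels were ordered. Efna5 was at 184 and 219 CPM in cells with no Nr2f1 UMI, 57.4 and 62.8 CPM with 1, 34.7 and 41.5 CPM with 2, and under 20 CPM in both embryos with 3 or more. Nr2f2 was at 7.11 and 4.04 CPM, 27.9 and 15.5 CPM, 33.3 and 20.7 CPM, and 85.0 and 81.3 CPM over the same bins. Fgfr3 was between 26.7 and 27.7 CPM with none and between 105 and 113 CPM with 3 or more. The order held in each embryo for Efna5 and Nr2f2. Among thinned RGC-like cells with an Nr2f1 UMI, 13.7% and 11.4% also had an Nr2f2 UMI, against 3.37% and 1.53% of those without. In IPC-like cells an Nr2f2 UMI was found in 19.03% and 19.70% against 4.12% and 3.02%, and in CGE interneuron-like cells 76.8% and 72.9% against 13.1% and 12.8%. Across these cells the Spearman correlation of Nr2f1 with Nr2f2 was 0.24 and 0.27, and the other 20 pairs of members lay between -0.14 and 0.14.

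Splitting by Emx2 set 396 and 491 cells with an Emx2 UMI against 731 and 799 without, and 2 of 6 genes were higher and 2 lower, where 2.54% of all genes passed. The limit for high cells was 1 UMI here and 2 for Nr2f1, so the sizes of difference cannot be compared between these splits. Emx1 was at 62.1 and 64.0 against 46.2 and 47.6 CPM (0.44 ± 0.12, edgeR adjusted p = 0.0197) and Lhx2 at 412 and 392 against 347 and 327 CPM (0.26 ± 0.06, edgeR adjusted p = 0.000404). Nr2f1 was at 232 and 203 against 283 and 242 CPM (-0.26 ± 0.07, edgeR adjusted p = 0.00624) and Nr2f2 at 14.6 and 15.9 against 39.4 and 25.5 CPM (-1.04 ± 0.19, edgeR adjusted p = 1.2e-05). In these blocked fits Emx1 and Lhx2 were higher and both COUP-TF genes lower where Emx2 was detected. None of the 4 calls held without the block, where the adjusted p were between 0.252 and 0.852. At 3000 UMIs the Nr2f1 call alone held, and with DESeq2 Emx1, Lhx2 and Nr2f1 were lost and Nr2f2 had no adjusted p. Rorb was the patterning gene that differed most, at 60.1 and 78.6 against 117 and 131 CPM (1.76-fold lower, edgeR adjusted p = 8.26e-15), and it too was lost without the block (adjusted p = 0.0687) and at 3000 UMIs. Cycling clusters held 52.0% and 59.7% of cells with an Emx2 UMI against 49.5% and 51.1% of the others, whose part was not tested.

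For Pax6 (384 and 484 cells with at least 2 UMIs against 407 and 398 with none), 1 of 6 genes was higher and 2 were lower, where 3.86% of all genes passed. Nr2f1 was at 292 and 250 CPM in Pax6-high against 226 and 214 CPM in Pax6-low cells (0.30 ± 0.08, edgeR adjusted p = 0.00531). Zbtb20 was at 1576 and 1642 against 2051 and 1876 CPM (-0.29 ± 0.04, edgeR adjusted p = 2.63e-13), and Nr2f2 at 19.8 and 22.3 against 48.6 and 28.6 CPM (-0.84 ± 0.20, edgeR adjusted p = 0.00121). None of these held without the block or with DESeq2, and Nr2f2 turned to 0.23 at 3000 UMIs. Emx2 did not differ detectably (92.2 and 107 against 89.9 and 111 CPM, edgeR adjusted p = 0.989). Tfap2c was 1.67-fold higher (edgeR adjusted p = 9.23e-07) and Efna5 1.55-fold lower (edgeR adjusted p = 2.33e-07) in Pax6-high cells, and both calls were lost without the block and with DESeq2, Tfap2c also at 3000 UMIs. Summed subpallial markers were lower in Pax6-high cells, at 9.38 and 10.3 against 49.6 and 38.2 CPM, and 54.4% and 57.0% against 41.8% and 51.5% of cells were in cycling clusters, and Zbtb20 was at lower CPM in cycling than in other RGC-like cells. The part of either was not tested.

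Pax6, Emx2, Nr2f1 and Nr2f2 each have a noncoding RNA gene at their 5′ end, none of them a naming marker. Emx2os lies 54 bases from the start of Emx2. A830082K12Rik starts inside Nr2f1 and shares 857 bases with it, B130024G19Rik shares 1364 bases with Nr2f2, and Pax6os1 shares 1435 bases with Pax6. The strand setting of the counting was not given in the sources used here, so reads from the shared bases could be counted for either gene. The windows below are from RefSeq (GRCm38.p6, plus strand, from 250 bases before to 50 bases after the start) and are shown for the 3 noncoding genes that were most like their neighbours (Emx2os, A830082K12Rik and B130024G19Rik). In the Emx2 window, chr19:59458440-59458739, capitals mark the 54 bases between Emx2os and Emx2. In the windows of A830082K12Rik, chr13:78197767-78198066, and B130024G19Rik, chr7:70365133-70365432, capitals mark the first 50 bases of the noncoding gene.
Emx2: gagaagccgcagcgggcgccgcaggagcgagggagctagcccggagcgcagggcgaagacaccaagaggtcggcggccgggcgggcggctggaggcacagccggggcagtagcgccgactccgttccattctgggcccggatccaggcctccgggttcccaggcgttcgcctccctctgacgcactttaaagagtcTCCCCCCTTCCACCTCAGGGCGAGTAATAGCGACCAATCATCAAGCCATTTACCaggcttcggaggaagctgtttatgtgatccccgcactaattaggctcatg
A830082K12Rik: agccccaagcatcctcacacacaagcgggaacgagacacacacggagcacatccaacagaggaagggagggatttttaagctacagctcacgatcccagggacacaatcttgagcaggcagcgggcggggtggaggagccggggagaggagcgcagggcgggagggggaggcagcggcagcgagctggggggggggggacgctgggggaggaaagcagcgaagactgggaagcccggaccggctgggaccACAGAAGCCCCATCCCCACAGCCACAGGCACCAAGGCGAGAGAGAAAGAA
B130024G19Rik: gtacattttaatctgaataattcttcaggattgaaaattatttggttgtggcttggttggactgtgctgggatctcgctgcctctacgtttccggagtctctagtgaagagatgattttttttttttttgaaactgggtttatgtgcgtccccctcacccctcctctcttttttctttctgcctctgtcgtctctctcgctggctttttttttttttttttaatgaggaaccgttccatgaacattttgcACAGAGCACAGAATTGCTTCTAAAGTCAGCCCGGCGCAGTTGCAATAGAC

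Emx2os and A830082K12Rik followed their neighbours across classes. B130024G19Rik was named because it was the gene most like Nr2f2 over class means, so its rank and correlations follow from that choice. Over 15 class means on a log2 scale, Emx2os was the gene most like Emx2 of 12114 considered (Pearson 0.98), A830082K12Rik the most like Nr2f1 (0.97) and B130024G19Rik the most like Nr2f2 (0.97), whereas Pax6os1 ranked 229 for Pax6 (0.67). Over the 10 classes in the tests, Emx2os was at 0.99, A830082K12Rik at 0.91, B130024G19Rik at 0.98 and Pax6os1 at 0.84. Med4 was then also at 0.91 with Nr2f1. These are descriptions over classes of very different depth. Emx2os was at 43.9 and 51.0 CPM in RGC-like cells, 20.5 and 19.7 CPM in IPC-like cells and 107 and 113 CPM in Cajal-Retzius-like cells, the same order as Emx2. B130024G19Rik was at 170.3 and 123 CPM in Cajal-Retzius-like cells against 10.7 and 8.28 CPM in RGC-like cells. A830082K12Rik was lower in CGE than in MGE interneuron-like cells (103 and 91.6 against 125 and 139 CPM, log2 difference -0.53 ± 0.12, edgeR adjusted p = 0.00368), a sign that turned at the 5% mitochondrial limit and with finer clustering. Among RGC-like cells split by Nr2f1, A830082K12Rik was 2.90-fold higher (edgeR adjusted p = 1.57e-09) and B130024G19Rik 10.9-fold higher (edgeR adjusted p = 2.08e-07) in Nr2f1-high cells. Both held under the 3 other settings. Pax6os1 was 1.66-fold higher in Pax6-high cells (edgeR adjusted p = 0.0318), a call lost under each of them. A830082K12Rik and Pax6os1 share bases with the gene whose UMIs chose the cells, so their calls may not be independent of the split. The part of shared reads was not tested.

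**Figure D5:**
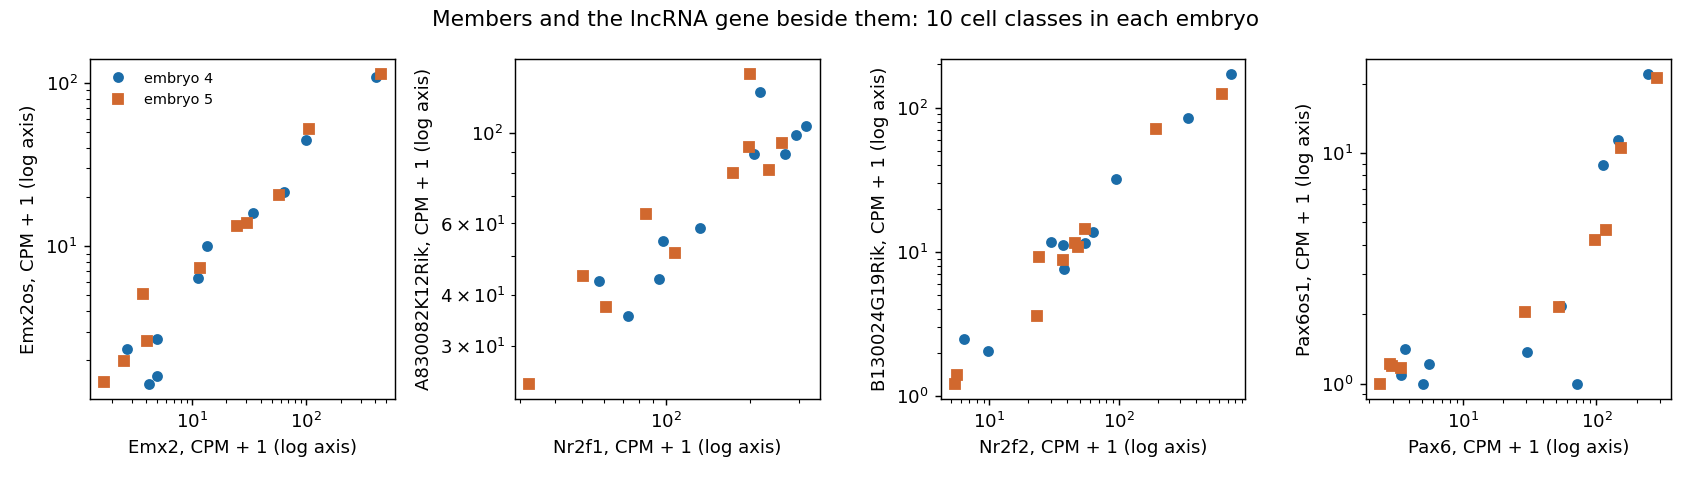
Level of each noncoding gene (y axes) against its neighbour (x axes) in 10 classes, both as CPM + 1 on log axes, circles embryo 4 and squares embryo 5. Points of Emx2os and B130024G19Rik rise with their neighbours over the whole range, and Cajal-Retzius-like cells are at the upper right of both panels. B130024G19Rik was named for its likeness to Nr2f2 over class means.

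Other genes with patterns most like the members were Alms1, Sema5b and Zfp664 for Pax6 (0.90 to 0.86), Cecr2, Hs3st1 and Mmd2 for Emx1 (0.92 to 0.89), and Nrg1, Gm11266 and Gm26604 for Lhx2 (0.90 to 0.88). For Zbtb20 they were Rpp25l, Chd7 and Isca2 (0.87 to 0.84). After their noncoding neighbours, Dmrta2os and Phlpp2 came next for Emx2, Ints2 and Med4 for Nr2f1, and Dnajb9 and Gm10125 for Nr2f2. In the 10 RefSeq promoter windows of the 7 genes, the homeodomain core TAATTA (both strands) occurred in 1, that of Emx2, and in 5.29% of 32851 windows of all genes. The nuclear receptor element AGGTCA (both strands) occurred in none of the 10 and in 16.3% of all windows.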

How the data were processed

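The deposited files hold raw UMI counts per gene and barcode, which the authors made from 10x 3′ v3.1 reads with Cell Ranger (7.0.0 in the submitters' processing notes, 7.1.0 in the file header) on mm10; whether intron reads were counted and the strand setting are not given in the sources used here. Total counts were 124318613 and 117679925. Barcodes with under 1000 genes (1772 and 765) or over 10% mitochondrial counts (174 and 56) and predicted doublets (947 and 1052, the highest Scrublet scores, 0.8% of cells per 1000 cells) were removed. Cells were clustered with scanpy 1.11.5 and leidenalg 0.10.2 (Python 3.11.15; 2000 variable genes, of which 1987 were used after the 7 genes, 29 patterning genes and 3 antisense genes were left out; 30 components, 20 neighbours, resolution 1).

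A cluster took the class with the highest mean log2 ratio of marker CPM (+ 10) inside against outside, if at least 0.5 with 3 markers in 10% of cells, and stayed unnamed if another class had more of the 10 leading genes. This naming rule was set after clusters were seen. The members and lists were chosen with earlier results of these data known. Class sums of UMI counts in each embryo were tested with edgeR 4.0.16 (R 4.3.3; quasi-likelihood, TMM, filterByExpr) in 1 fit over 10 classes, with Benjamini-Hochberg adjustment over all genes and a threshold of 0.05. Cells are not replicates, and p-values rest on 2 embryos. The fits that split RGC-like cells had the embryo as a block. Sums of 1 embryo come from the same animal, so embryo numbers pair them: over 45 pairs of classes, deviations from class means correlated between -0.01 and 0.20 (median 0.09). Alternatives included DESeq2 1.42.0. The tests were tested on simulated data.

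Named besides the members were their antisense genes and A830082K12Rik, up to 3 called patterning genes with the largest change in each direction per comparison, and the 3 genes most like each member over 15 class means of log2(CPM + 10), among genes of at least 20 CPM in 1 class. B130024G19Rik came in by the last rule. Shares of cells were taken after thinning to 5000 UMIs. Classes with under 50 cells in an embryo entered no test. Each embryo's library gives counts whose intervals would cover counting error only.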

Additional observations from a re-analysis of the deposited data

Results flagged for a closer look

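The Nr2f1 level in 2 clusters that entered no comparison was above that of every class in the tests. In unnamed cluster 8 the mean of both embryos was 456 CPM (464 and 447) and in unnamed cluster 9 it was 438 CPM (487 and 390), beside 277 CPM in IPC-like cells, the highest of the classes tested. Cluster 8 reached no class marker limit, and the leading genes of cluster 9 held more markers of another class than of its own. Both embryos contributed about equally (477 and 490 cells, 427 and 487 cells). The levels were not tested.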

How the results depend on the processing

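Of 42 calls on members, 410 of 460 retests kept direction and call, 42 lost the call and 8 changed direction, and 23 calls never changed. Left-out embryos gave 84 values for these calls, all of unchanged sign. Each such value is the difference in the remaining embryo, so a called result was unlikely to change sign. Over all member results, called or not, 20 values without embryo 4 and 16 without embryo 5 moved by more than 1 standard error. Pax6 in CGE against MGE ran from 4.48 to 6.24, Emx2 in the Nr2f1 split from -0.61 to -0.19 and Nr2f2 in the Pax6 split from -1.29 to -0.36. With 2 embryos a left-out embryo leaves no residual degrees of freedom, so counts of called genes have no such value. The CGE class was not found at resolution 0.5 or under the stricter rule on ties, and cycling cells could not be split at resolution 0.5. The naming margin of 0.25 and the stricter rule on ties were chosen after seeing the data. The cause of each change below was not tested.

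From IPC-like to migrating cells, Nr2f2 turned to 1.20 with doublets kept, 0.89 at 500 genes, 2.51 at 5% mitochondrial counts, 0.88 at resolution 0.5, 1.18 at resolution 2 and 0.97 with members left in the clustering, and B130024G19Rik to 2.06, 1.70, 3.52, 1.74, 2.04 and 2.03 in that order. Nr2f1 turned to 0.55 at 5% mitochondrial counts. A830082K12Rik, not called, turned to 0.30 at 500 genes, 0.57 at 5%, 0.56 and 0.50 at resolutions 0.5 and 2, and 0.31 with members left in, and Emx2os to 0.13 with the naming margin. From upper-layer to layer 6, Zbtb20 turned to -0.72 at 5%, -0.91 and -0.67 at resolutions 0.5 and 2, and Emx2os to -1.51, -1.55 and -1.41. From upper-layer to layer 5, Cdh6 turned to 0.24 and 0.15 at resolutions 0.5 and 2. RGC-like against neurons, Nr2f2 was -0.000137 at resolution 0.5. CGE against MGE, A830082K12Rik turned to 0.17 at 5% and 0.46 at resolution 2, where Emx2os was -0.13 and Cdh6 -0.46. In cycling cells Dmrta2 turned to -0.0948 at 500 genes, -0.14 at 5% and -0.0944 with members left in. In Pax6-high cells Nr2f2 turned to 0.23 at 3000 UMIs.

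Counts of all called genes moved over 1.5 times in these cases. Thinned to 2000 UMIs, which leaves fewer molecules, they were 5150 (IPC against RGC, 8253 before), 4437 (migrating against IPC, 7043), 2376 (upper-layer against migrating, 4623), 2612 (layer 6 against upper-layer, 5308), 1206 (layer 5 against upper-layer, 2914), 1221 (CGE against MGE, 2242) and 1043 (cycling, 2717). At 5% mitochondrial counts layer 5 against upper-layer gave 4484 and CGE against MGE 1108, and resolution 2 gave 1323 for the latter. In the split RGC-like cells the replicate block mattered: without it 284 genes passed for Nr2f1, 20 for Emx2 and 36 for Pax6, beside 659, 301 and 424 with it. At 3000 UMIs these were 422, 119 and 197, and with DESeq2 135, 29 and 10. In the class fits the replicate block moved no count of calls by over 1.5 times, and its changed member calls are given above.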
